A study of Mus musculus with 8 samples.

Results

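The p53 module examined here is a list of 33 genes: Trp53, which encodes p53, the genes that control it, and known targets in cell cycle arrest, cell death and DNA repair. All 33 were found by symbol among the 55450 genes of the deposited table, and 32 passed the filter on low counts. The cells were RAW264.7, an established mouse line with macrophage properties from an Abelson leukaemia virus tumour, and their total RNA was sequenced. Of the 2 lines made from them, shNS carried a non-silencing control shRNA and shDis3l2 a hairpin against Dis3l2, an exoribonuclease that degrades RNAs with a uridine tail. With doxycycline at 1 µg/mL, which commonly serves to switch on an shRNA, each line had 3 libraries, and a single library of each was made without doxycycline, all on day 4. The labels do not say whether a line is a clone or whether replicates were separate cultures, so p-values measure the spread between these libraries, which may be technical.

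p53 is a transcription factor that is kept scarce by Mdm2, a ubiquitin ligase that it also activates. When DNA damage or other stress frees it from Mdm2 and Mdm4, it raises genes that halt the cell cycle, such as Cdkn1a, genes that trigger death through receptors or mitochondria, and genes that repair DNA. Much of its control acts on the protein, which RNA sequencing does not see.

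The libraries held 30341823 to 45557804 counts, the deepest being shDis3l2 replicate 1. Dis3l2 itself was at 33.02, 28.6 and 22.0 CPM (counts relative to library size, scaled by TMM) in shNS with doxycycline and at 12.001, 13.5 and 14.9 CPM in shDis3l2 (log2 fold change -1.05, SE 0.19, edgeR adjusted p = 0.0216), and at 29.6 and 28.6 CPM in the libraries without it. Of 10 macrophage markers 9 had counts in all 8 libraries, with summed levels of 8037 to 11953 CPM in shNS and 7018 to 9793 CPM in shDis3l2 with doxycycline. Of the 10, edgeR called only Adgre1, which was lower in shDis3l2 (log2 fold change -2.70, adjusted p = 0.0368). The log2 fold changes were positive for 6 and negative for 4. Csf1r, Itgam and Fcgr1 were higher without overlap (0.52, 0.58 and 0.52, none called by edgeR), where 13.2% of all genes were. Cd68 and Lyz2 were lower with overlap (-0.70 and -0.72, neither called by edgeR). Mertk stood at 0.598, 41.5 and 0.892 CPM in shNS with doxycycline, at 46.6 CPM in shNS without it and at 0 in all 4 shDis3l2 libraries (adjusted p = 0.209). The libraries shDis3l2 replicates 2 and 3 were nearest to each other (chi-square per gene 18.1), while replicate 1 differed more from both (85.3 and 104), and the shNS replicates differed by 130 to 195. The 14 markers of other cell types summed to at most 1.29 CPM in any library, and 7 of them were at 0 throughout. Fewer cells of a kind and less RNA per cell cannot be told apart in such bulk libraries, and the part of these marker differences in the results below was not tested.

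With doxycycline, 8 of the 32 tested members were lower in shDis3l2 and 1 was higher. Those that fell were Trp53inp1, Trp53inp2, Ccng1, Gdf15, Zmat3, Tnfrsf10b, Phlda3 and Eda2r, and the gene that rose was Trp53. edgeR's quasi-likelihood test called 4.01% of all 13752 genes lower and 2.13% higher. The members' share was above the background on the lower side and near it on the higher side. Because the members were chosen with earlier results of these data known, this comparison cannot show an excess particular to them. The members had a median log2 fold change of -0.29, against -0.0023 over all genes, and 22 of 32 values were negative. The 3 levels of shDis3l2 lay below all 3 of shNS for 10 members and above them for 2, where 14.6% and 13.2% of all genes did so. Of the 23 members without a call 20 had overlapping groups. The count of lower members depended on single libraries: it was 4, 1 and 3 without shDis3l2 replicate 1, 2 or 3, and 7 to 9 when an shNS library was left out. The count over all genes moved too. It was 552 lower with every library, 317, 129 and 167 without shDis3l2 replicate 1, 2 or 3, and 504 to 653 without an shNS library. The 8 genes that fell lay on 8 different chromosomes, and no annotated gene in the table overlapped any of the 9 called members.

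Of the 6 genes that control p53 or act beside it, 3 fell, 1 rose and 2 did not pass. Trp53 (ENSMUSG00000059552, chromosome 11, 69580359 to 69591873, plus strand, GRCm38) stood at 141, 146 and 144 CPM in shNS with doxycycline and at 250, 207 and 196 CPM in shDis3l2. The shNS libraries were nearly equal, all shDis3l2 libraries lay above them, and replicate 1 was the highest. The mean rose from 143 ± 2.67 to 218 ± 28.7 CPM (SD, n = 3 in each group), a log2 fold change of 0.61 (SE 0.14, edgeR adjusted p = 0.0478). This call was lost in each of the 6 fits that left out a library (adjusted p up to 0.162), and also with all 8 libraries in the fit (0.0557). Without doxycycline shNS stood at 177 CPM and shDis3l2 at 185 CPM, the ratio being 1.04 with a 95% counting interval of 1.01 to 1.08, and both lay between the doxycycline groups.

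Mdm2, the ubiquitin ligase that is both inhibitor and target of p53, was at 65.7, 82.0 and 134 CPM in shNS and at 61.6, 58.7 and 65.2 CPM in shDis3l2. The shDis3l2 libraries lay close together just under the lowest shNS library, while shNS replicate 3 stood high. Its log2 fold change of -0.60 (SE 0.25) did not pass (edgeR adjusted p = 0.231). Mdm4, the related inhibitor that lacks strong ligase activity of its own, overlapped between the groups, with 84.0 to 149 CPM in shNS and 97.8 to 136 CPM in shDis3l2.

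Trp53inp1 (ENSMUSG00000028211, chromosome 4, 11156431 to 11174379), a p53-induced nuclear protein with roles in death and autophagy, was at 32.1, 14.5 and 11.6 CPM in shNS with doxycycline. In shDis3l2 it was at 2.72, 1.93 and 2.78 CPM. Every shDis3l2 library was below every shNS library, and shNS replicate 1 was the highest. It fell by 2.97 on the log2 scale (SE 0.43, edgeR adjusted p = 0.0119), and the call was lost without shDis3l2 replicate 1, 2 or 3 (adjusted p up to 0.0693). Its relative Trp53inp2 (ENSMUSG00000038375, chromosome 2, 155381059 to 155389850), which acts in autophagy, stood at 29.97, 57.1 and 33.8 CPM in shNS and at 8.87, 9.75 and 14.3 CPM in shDis3l2. In shNS, replicate 2 was high and close to the 60.8 CPM of the shNS library without doxycycline. The level fell by 1.87 on the log2 scale (SE 0.30, edgeR adjusted p = 0.0168), lost without shDis3l2 replicate 1 or 2 (adjusted p up to 0.0967). Ccng1 (ENSMUSG00000020326, chromosome 11, 40748552 to 40755311) encodes cyclin G1, a p53 target that brings a phosphatase to Mdm2. It was at 131, 151 and 174 CPM in shNS and at 86.7, 75.8 and 84.9 CPM in shDis3l2, with no overlap. It fell to 54.3% of the shNS mean (log2 fold change -0.88, SE 0.14, edgeR adjusted p = 0.0168), and the call was lost without shDis3l2 replicate 1, 2 or 3 (adjusted p up to 0.111).

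**Figure D1:**
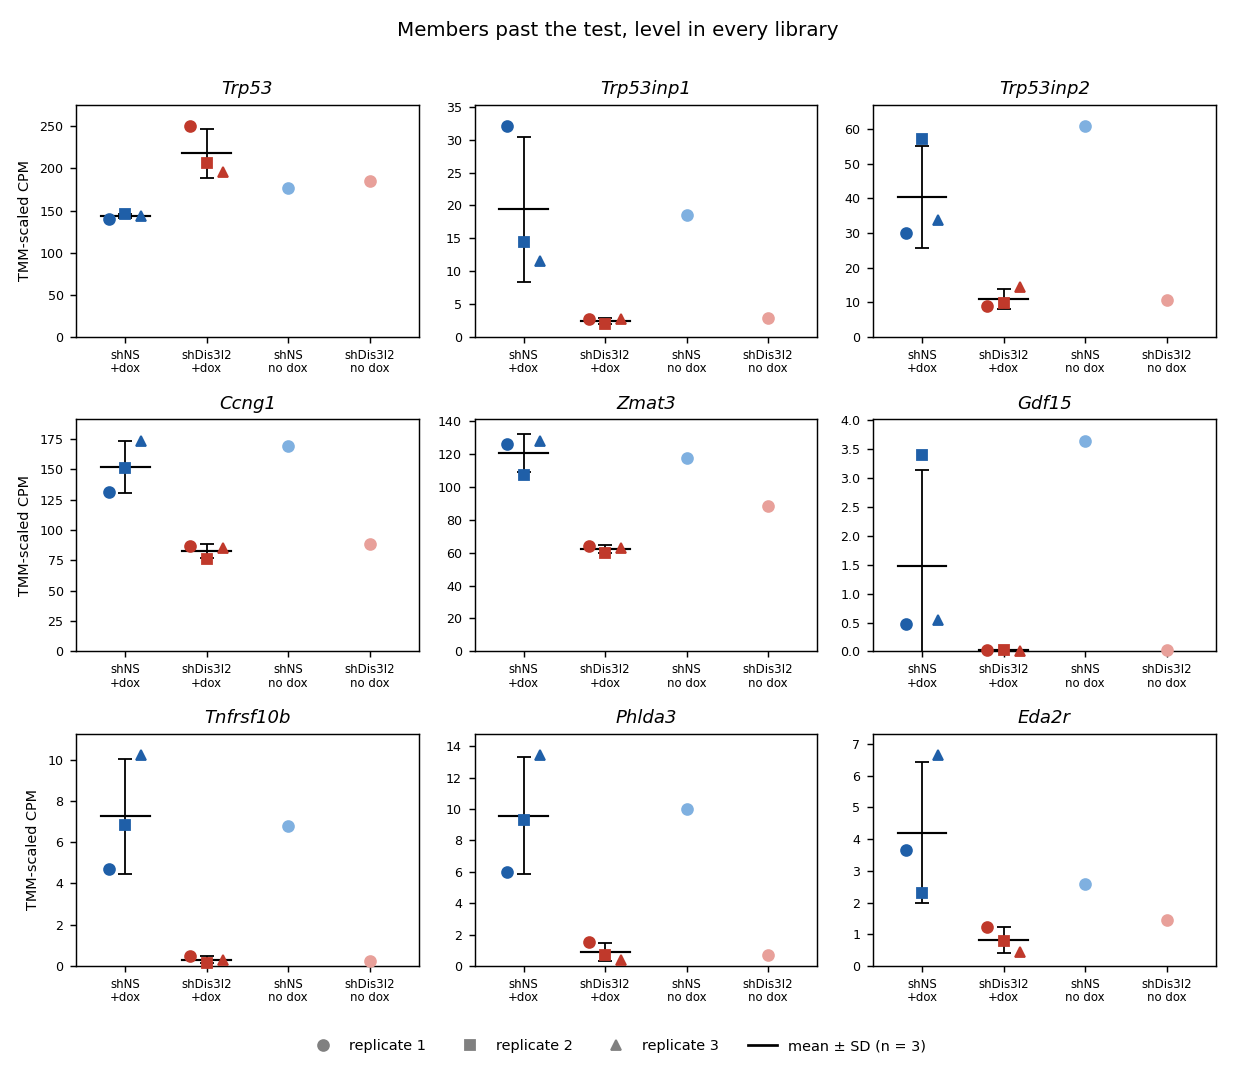
Level of the 9 members past the test in each library, as TMM-scaled CPM on linear axes from 0. Points are libraries, marked by replicate, and bars show the mean ± SD of the 3 doxycycline libraries of a line; in Gdf15 the lower SD bar runs below 0 and is not drawn there. In the 8 genes that fell, all 3 shDis3l2 libraries with doxycycline lie below all 3 shNS libraries, and the shDis3l2 library without doxycycline lies below the shNS library without it.

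Of the 9 members in arrest and cell cycle control 2 fell and 7 did not pass. Zmat3 (ENSMUSG00000027663, chromosome 3, 32334792 to 32366014), a zinc finger protein that binds RNA and restrains growth downstream of p53, was at 126, 107 and 128 CPM in shNS and at 64.1, 59.8 and 62.5 CPM in shDis3l2. The libraries of each line lay close together and the groups were well apart. The level fell by 0.95 on the log2 scale (SE 0.13, edgeR adjusted p = 0.00844), lost without shDis3l2 replicate 2 or 3 (adjusted p up to 0.0670). Gdf15 (ENSMUSG00000038508, chromosome 8, 70629393 to 70632456), a secreted stress cytokine, was scarce, with 15, 116 and 19 counts in shNS and 1, 1 and 0 counts in shDis3l2. In shNS most of its counts came from replicate 2, and without that library the fitted log2 fold change moved from -6.11 to -4.59 (edgeR adjusted p = 0.0123). The ratio of summed counts, shNS over shDis3l2, was 83.3 (95% counting interval 22.7 to 694), which covers counting error only. The edgeR adjusted p was 0.0342, and the call was lost without shDis3l2 replicate 1, 2 or 3 (adjusted p up to 0.139).

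Cdkn1a, which encodes the cyclin-dependent kinase inhibitor p21 and is the usual readout of p53 activity, did not pass. It was at 90.0, 80.2 and 224 CPM in shNS and at 134, 87.8 and 92.0 CPM in shDis3l2, with a log2 fold change of -0.32 (SE 0.41, edgeR adjusted p = 0.729). The groups overlapped, with shNS replicate 3 far above the rest. Without that library the log2 fold change was 0.29 and did not pass either. Plk2, a polo-like kinase induced by p53, showed the widest gap among members without a call. Its levels were 10.2, 17.9 and 50.8 CPM in shNS against 3.31, 0.438 and 1.45 CPM in shDis3l2. These groups did not overlap, but they varied 4.96-fold and 7.57-fold within themselves, and the log2 fold change of -3.90 (SE 0.91) gave an edgeR adjusted p of 0.0663. DESeq2 called it, as did edgeR scaled by library size alone or fitted without shNS replicate 2.

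Plk3, a related stress kinase, was at 2.77, 21.8 and 6.65 CPM in shNS and 8.07, 6.54 and 8.15 CPM in shDis3l2. Only shNS replicate 2 stood above the shDis3l2 range, and the shNS library without doxycycline was higher still at 33.5 CPM. Btg2, an antiproliferative gene, was at 65.3, 62.1 and 26.4 CPM in shNS and within 40.0 to 42.6 CPM in shDis3l2. It had an edgeR adjusted p of 0.668, but it was called lower when the low shNS replicate 3 was left out (log2 fold change -0.62). Sertad1, a regulator of Cdk4, overlapped, with 3.84 to 12.3 CPM in shNS and 6.09 to 11.2 CPM in shDis3l2. Gtse1, a microtubule protein of G2 and M phase that restrains p53, was at 25.9 to 29.5 CPM in shNS and 33.8 to 37.8 CPM in shDis3l2 without overlap, yet did not pass (log2 fold change 0.38, edgeR adjusted p = 0.133). Psrc1, a spindle protein, overlapped, with 16.1 to 35.9 CPM in shNS and 14.3 to 22.5 CPM in shDis3l2.

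**Figure D2:**
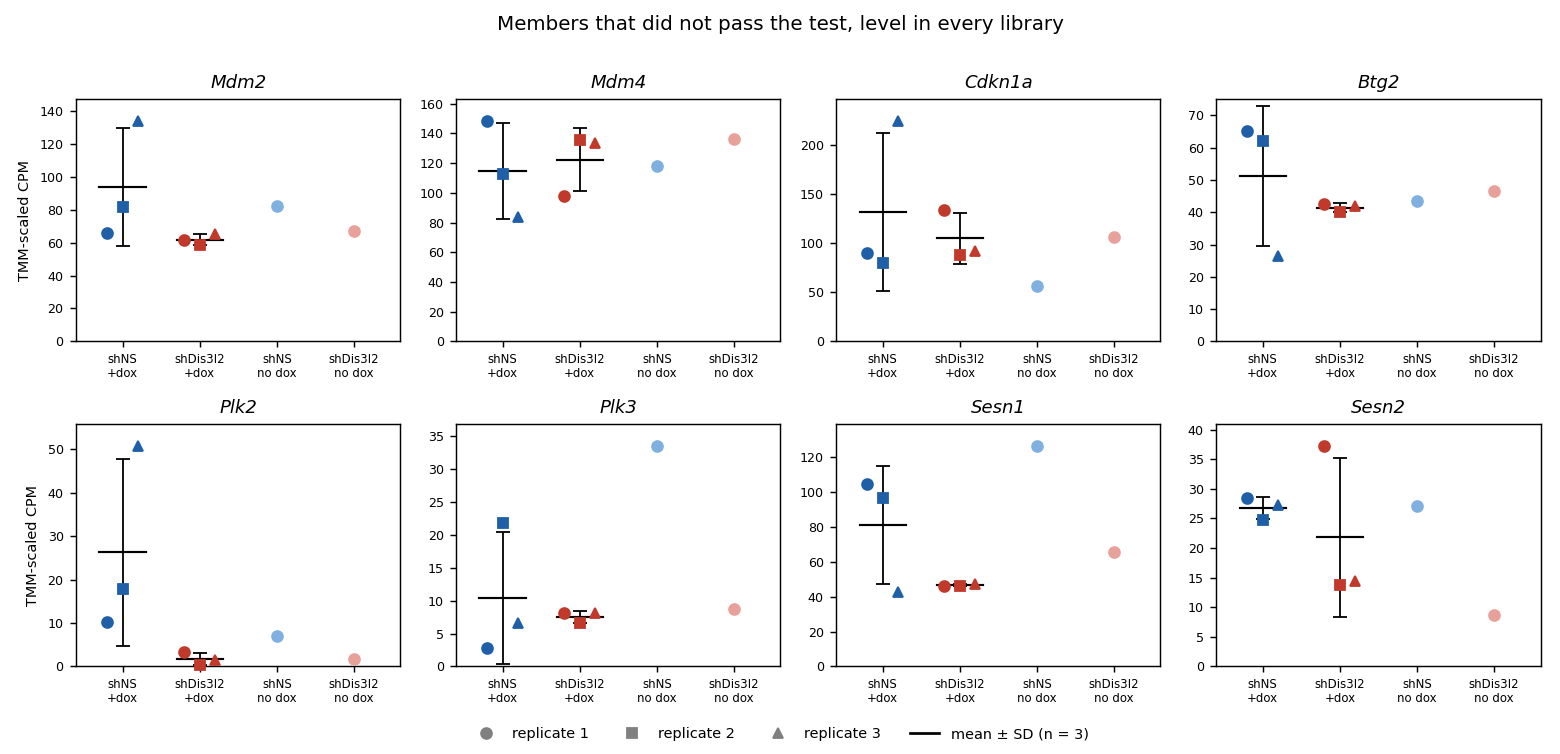
Level of 8 members that did not pass the test in each library, as TMM-scaled CPM on linear axes from 0, with points by replicate and the mean ± SD of the 3 doxycycline libraries of a line. shNS replicate 3 is far above the others in Cdkn1a and Plk2 and below them in Btg2 and Sesn1, and shDis3l2 replicate 1 stands alone in Sesn2.

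Of 11 death genes 3 fell, 7 did not pass and Perp was not tested. Tnfrsf10b (ENSMUSG00000022074, chromosome 14, 69767472 to 69784411), the receptor for the death ligand TRAIL, had 149, 234 and 355 counts in shNS with doxycycline and 21, 5 and 10 in shDis3l2. These corresponded to 4.69, 6.85 and 10.2 CPM against 0.480, 0.146 and 0.295 CPM. All shDis3l2 libraries were far below the lowest shNS library. The mean in shNS was 23.6 times that in shDis3l2 (log2 fold change -4.52, SE 0.50, edgeR adjusted p = 0.00482). No other member kept its call whichever library was omitted; over those 6 fits its log2 fold change ran from -5.01 to -4.18 (adjusted p up to 0.0324).

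Phlda3 (ENSMUSG00000041801, chromosome 1, 135766119 to 135769136), a p53 target that holds back the survival kinase Akt, was at 6.01, 9.28 and 13.4 CPM in shNS and at 1.53, 0.729 and 0.414 CPM in shDis3l2. The groups were apart, with a log2 fold change of -3.40 (SE 0.53, edgeR adjusted p = 0.0149), and the call was lost without shDis3l2 replicate 2 (adjusted p = 0.0869). Eda2r (ENSMUSG00000034457, X chromosome, 97333840 to 97377216), a receptor of the TNF family, was at 3.65, 2.31 and 6.65 CPM in shNS and at 1.23, 0.788 and 0.443 CPM in shDis3l2. It fell by 2.34 on the log2 scale (SE 0.52, edgeR adjusted p = 0.0455). It was called in 1 of the 6 fits that left out a library, the fit without shNS replicate 2, with an adjusted p of up to 0.178 in the others.

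The other death genes overlapped between the groups. Bax, the mitochondrial pore-forming protein, was at 112, 122 and 130 CPM in shNS and at 131, 90.0 and 93.9 CPM in shDis3l2 (log2 fold change -0.21, edgeR adjusted p = 0.570). Its partners Bbc3, which encodes Puma, and Pmaip1, which encodes Noxa, had log2 fold changes of -0.16 and 0.27 (edgeR adjusted p = 0.890 and 0.477). In both of them, as in Bax, shDis3l2 replicate 1 was the highest of the shDis3l2 libraries, with 12.4 against 5.31 and 4.70 CPM for Bbc3. Apaf1, the scaffold of the apoptosome, Pidd1, which activates caspase-2, and Aen, a nuclease of apoptosis, had log2 fold changes of -0.29, -0.13 and 0.14. Fas, a death receptor, was scarce in all libraries, with 18, 6 and 26 counts in shNS and 41, 32 and 23 in shDis3l2 (log2 fold change 0.78, edgeR adjusted p = 0.461). Perp, a p53 target of cell junctions, had 1 count in 1 of the 8 libraries.

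None of the 7 members in repair and stress defence passed edgeR's test, and by DESeq2 and limma-voom the count was also 0. Of all 13752 genes edgeR called 6.14%, DESeq2 1748 and limma-voom 850. An unadjusted edgeR p under 0.05 was found for 1 of the 7, where 2864 of all 13752 genes had one. This was Sesn1, a sestrin that restrains mTORC1, at 105, 96.5 and 42.6 CPM in shNS and 46.1, 46.3 and 47.3 CPM in shDis3l2. The shDis3l2 libraries were almost equal, and shNS replicate 3 lay just below them. Its log2 fold change of -0.81 did not pass (SE 0.32, edgeR adjusted p = 0.214), and Sesn1 was called lower when shNS replicate 3 was left out (-1.12). Its relative Sesn2 was at 28.4, 24.7 and 27.2 CPM in shNS and at 37.3, 13.7 and 14.4 CPM in shDis3l2. Replicates 2 and 3 of shDis3l2 lay below shNS and replicate 1 above it, and without replicate 1 the gene was called lower, at -0.92.

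The nucleotide excision repair genes overlapped between the lines (edgeR adjusted p = 0.568 to 0.729). Xpc, which recognises damage, was at 14.0 to 17.9 CPM in shNS and 17.0 to 17.9 CPM in shDis3l2. Ercc5, an endonuclease of the same pathway, was at 16.1 to 22.7 and 14.0 to 18.1 CPM, and Ddb2, a sensor of ultraviolet lesions, at 3.25 to 11.1 and 7.29 to 9.04 CPM. Polk, a translesion polymerase, and Rrm2b, the p53-induced subunit of ribonucleotide reductase, had log2 fold changes of 0.14 and -0.16. With 3 libraries a group, a difference that did not pass is not shown to be absent.

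Levels of different genes were compared per kilobase of annotated exon. In shNS with doxycycline Bax was the most abundant member at 76.9 CPM per kilobase, followed by Ccng1 (43.3), Cdkn1a (37.0) and Trp53 (35.4). In shDis3l2 the order of the first 4 was Bax (66.5), Trp53 (53.9), Cdkn1a (29.4) and Ccng1 (23.5). Of the 8 genes that fell, Tnfrsf10b, Eda2r and Gdf15 were among the scarcest members already in shNS, at 0.71 to 1.33 CPM per kilobase.

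The lines were then compared without doxycycline, in 1 library each. These libraries took no part in the comparison above, although the lines are the same. Of 32 members 8 were at least 2-fold lower in shDis3l2 and 2 at least 2-fold higher, where 11.5% and 9.29% of 15250 genes were. A test of this contrast in the fit of all 8 libraries, added after seeing the data, assumes that the lone libraries vary like the rest. There edgeR called 0 of 32 members, and 0.111% of all genes lower and 0.0721% higher. Limma-voom also called 0, and DESeq2 called 6 lower (Ccng1, Gdf15, Phlda3, Tnfrsf10b, Trp53inp1 and Trp53inp2), where it called 408 of 15250 genes lower. The same 6 had an unadjusted edgeR p under 0.05, where 11.8% of all genes did. Without shNS replicate 2 in the fit, edgeR called 3 members lower (Gdf15, Tnfrsf10b and Trp53inp2), where it called 423 of 15167 genes lower. All 9 members called with doxycycline had the same sign without it, but the log2 ratio of Trp53 was only 0.060. The share of all called genes that kept their sign was not counted. Of the 8 that fell, 5 were at least 2-fold lower here too. For Trp53inp1 shNS stood at 18.5 CPM and shDis3l2 at 2.85 CPM, which is 0.154 times as much with a 95% counting interval of 0.125 to 0.188. For Tnfrsf10b the ratio was 0.0337 (0.0152 to 0.0651), for Phlda3 0.0712 (0.0467 to 0.105) and for Trp53inp2 0.175 (0.158 to 0.195). Gdf15 had 133 counts in shNS and 1 in shDis3l2. In that shDis3l2 library Dis3l2 itself was at 28.6 CPM. The smallest edgeR adjusted p among the members was that of Tnfrsf10b (0.177).

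Ccng1 was at 88.4 CPM in shDis3l2 and 169 CPM in shNS without doxycycline (ratio 0.524, 0.502 to 0.546). Zmat3 was at 88.4 against 118 CPM (ratio 0.752, 0.719 to 0.787), a level between the doxycycline shDis3l2 libraries and shNS, and Eda2r at 1.45 against 2.58 CPM (ratio 0.561, 0.397 to 0.788). Cdkn1a went the other way, at 106 CPM in shDis3l2 and 55.8 CPM in shNS, the lowest of all 8 libraries. Sertad1 (ratio 2.58) and Fas (2.31, 1.07 to 5.40) were the 2 members at least 2-fold higher. Plk2, Plk3 and Sesn2 were at least 2-fold lower without having passed the test with doxycycline, with ratios of 0.248, 0.259 and 0.321. Each interval covers counting error only and says nothing of the spread between libraries of a line.

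**Figure D3:**
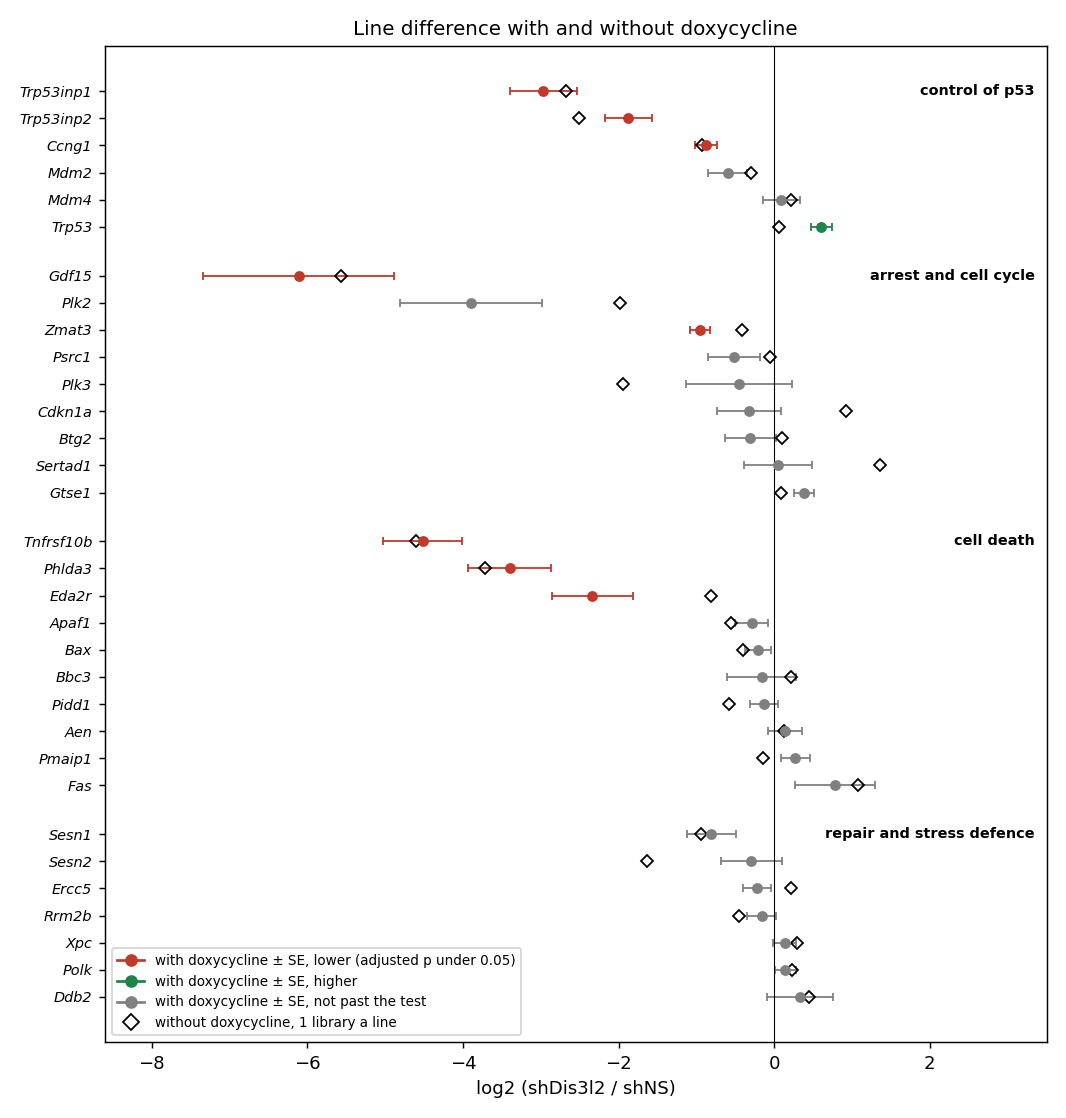
Difference between the lines for the 32 tested members, as log2 of shDis3l2 over shNS, grouped by role. Filled circles with SE are the comparison with doxycycline (3 libraries a line) and open diamonds the comparison without it (1 library a line, no error). The diamonds of Trp53inp1, Ccng1, Gdf15, Tnfrsf10b and Phlda3 lie within or beside the error bars, that of Trp53inp2 lies farther from 0, those of Zmat3 and Eda2r nearer to 0, and that of Trp53 is close to 0.

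The effect of doxycycline was tested within each line with all 8 libraries, and these fits share the doxycycline libraries with the comparison above. edgeR called 0 of 32 members in shNS, 0 in shDis3l2 and 0 for the difference between the lines. The share of all genes called was 0% in each. Members with an unadjusted p under 0.05 numbered 0, 1 and 0, no more than the share of all genes (4.24%, 3.30% and 3.78%), and DESeq2 and limma-voom called 0 members in each. The 1 member was Zmat3 in shDis3l2, with a log2 change of -0.51 under doxycycline (unadjusted p = 0.020 by edgeR, not past adjustment), beside 0.03 in shNS. The difference between these changes, -0.54 (SE 0.25), had an unadjusted p of 0.0643. For Trp53 the changes were -0.31 in shNS and 0.24 in shDis3l2, a difference of 0.54 (SE 0.28, unadjusted p = 0.0878). These tests rest on 1 library without doxycycline per line, assumed to vary like the rest. The result in shNS also rests on replicate 2: without it, Plk3 and Gdf15 were called lower under doxycycline in shNS (log2 change -2.85 for both, edgeR adjusted p = 0.0162 and 0.0424), where 3.59% of all genes were called, 1.93% lower and 1.66% higher. The count for the difference between the lines was 0 members without that library too.

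The shNS libraries differed among themselves for many members. The highest of the 3 doxycycline libraries was on median 1.97 times the lowest over the 32 members in shNS and 1.38 times in shDis3l2, where all genes had medians of 1.43 and 1.30. Replicate 3 was the highest for 12 members: Mdm2, Ccng1, Cdkn1a, Zmat3, Plk2, Sertad1, Tnfrsf10b, Fas, Eda2r, Bax, Aen and Phlda3. This is a share of 37.5%, where replicate 3 was the highest for 34.2% of all genes. Replicate 1 was the highest for 14 members (43.8%, all genes 35.5%) and replicate 2 for 6 (18.8%, all genes 30.2%). In shDis3l2, replicate 1 was the highest for 19 members (59.4%, all genes 47%). Replicate 2 was nearer to the untreated shNS library than to the other replicates for Gdf15 (3.39 and 3.65 CPM against 0.472 and 0.547 CPM), Plk3 and Trp53inp2.

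RefSeq promoter windows (GRCm38.p6), from 250 bases before to 50 after a gene start, were searched for the p53 decamer, a run of purines, C, A or T, G and pyrimidines that reads the same on both strands. Windows were found for 25 of the 33 members, and 9 of these held a decamer: Aen, Bax, Ccng1, Cdkn1a, Gtse1, Mdm2, Polk, Sesn1 and Trp53. Counted by window, 10 of 35 held 1, against 8.36% of all 32851 windows. Of the 5 genes that fell and had a window, 1 did (Ccng1), as did 7 of 19 members without a call. A pair of decamers at most 13 bases apart was in 1 member window, that of Cdkn1a, and in 24 of all windows (0.0731%). The stretches below show a gene that fell, Ccng1, beside targets that did not pass. Ccng1, Mdm2 and Bax each held a single decamer there and Cdkn1a a pair, and whether any of them binds p53 was not tested. For Cdkn1a, 1 of its 2 windows held decamers, and their position is counted from the gene start of that window. Capitals mark the decamers, the first of which begins 73 bases before the start of Cdkn1a (chr17:29090861-29090978, plus strand), 185 before Ccng1 (chr11:40755417-40755516, minus), 186 before Mdm2 (chr10:117710890-117710989, minus) and 201 before Bax (chr7:45467045-45467144, minus).
Cdkn1a: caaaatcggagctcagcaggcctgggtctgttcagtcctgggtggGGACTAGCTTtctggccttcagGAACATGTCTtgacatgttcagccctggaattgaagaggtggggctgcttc
Ccng1: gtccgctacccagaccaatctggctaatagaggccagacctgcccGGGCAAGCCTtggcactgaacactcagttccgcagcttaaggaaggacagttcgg
Mdm2: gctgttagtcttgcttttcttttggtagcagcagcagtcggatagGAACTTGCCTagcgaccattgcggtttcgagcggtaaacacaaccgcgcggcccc
Bax: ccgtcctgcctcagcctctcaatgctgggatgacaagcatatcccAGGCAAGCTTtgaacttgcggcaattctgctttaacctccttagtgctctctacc
A match describes these letters only, and many p53 sites are known outside such windows. Only exact matches were counted and marked, so a near match, such as the bases directly after the last Cdkn1a decamer, stayed in lower case.

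The nearest tested neighbours of the 9 called members were compared to see whether whole loci differed. Of 18 neighbours 2 fell and 0 rose, against 6.14% of all genes called in either direction. Tnfrsf10b fell by 4.52 on the log2 scale while Rhobtb2, 0.579 kb beyond it, was at 0.16, and the non-coding 4930480K23Rik on its other side at -0.12. Wrap53, which lies 0.104 kb before Trp53 on the other strand, was at 0.19 (edgeR adjusted p = 0.623). The neighbours that fell were Pgpep1, 14.0 kb from Gdf15 (log2 fold change -1.83, edgeR adjusted p = 0.00962), and Cldn11, at -5.18 (adjusted p = 0.00232) but 1170.5 kb from Zmat3.

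**Figure D4:**
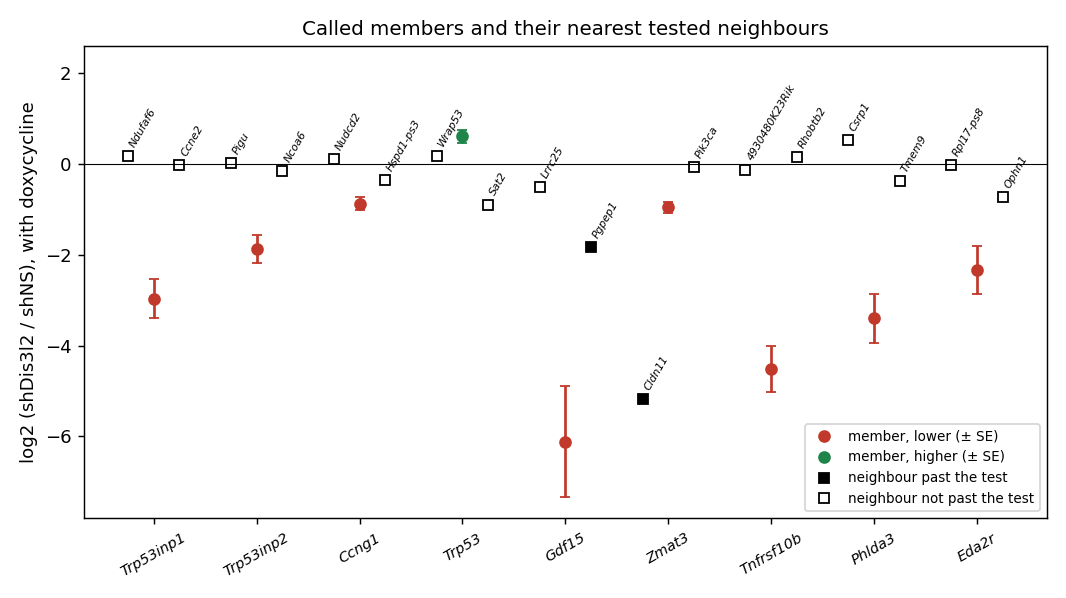
Log2 fold change with doxycycline, shDis3l2 over shNS, for the 9 called members (circles with SE) and their nearest tested gene on each side (squares, filled where past the test). Except for Pgpep1 beside Gdf15 and the distant Cldn11, the neighbours lie between -0.89 and 0.53, and none of these passed.

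Other genes of the pathway were counted from lists that do not overlap the members. These lists too were chosen with earlier results of these data known, so their counts cannot show an excess over all genes. Of 26 genes that act upstream of p53, among them the damage kinases Atm, Atr, Chek1 and Chek2, 23 were tested and edgeR called 0. DESeq2 and limma-voom also called 0, where of all 13752 genes edgeR called 6.14%, DESeq2 1748 and limma-voom 850. An unadjusted edgeR p under 0.05 was found for 3, where 2864 of all 13752 genes had one. The median log2 fold change of the 23 was 0.06. Smallest in adjusted p were Chek1 (0.60, adjusted p = 0.126), Ppm1d, a phosphatase that switches p53 off (0.42, 0.156), Hipk2, a kinase of p53 (-0.94, 0.231), and Brca1 (-0.27, 0.302). Cdkn2a, which encodes the Mdm2 inhibitor Arf, had 0 counts in all 8 libraries, which allows at most 0.0104 CPM over the 289016110 counts. The p53 relative Trp63 had 0 and Trp73 had 3 counts in all.

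Of 38 further p53 targets 34 were tested, of which 7 fell and 2 rose (all genes 4.01% and 2.13%), with a median log2 fold change of -0.09. DESeq2 called 8 lower and 3 higher, and limma-voom 6 and 2. Of all 13752 genes DESeq2 called 1104 lower and 644 higher, and limma-voom 530 and 320. Ephx1, an epoxide hydrolase, was at 23.1, 21.4 and 49.2 CPM in shNS and at 2.40, 2.19 and 2.33 CPM in shDis3l2 (log2 fold change -3.75, SE 0.36, edgeR adjusted p = 0.00314). Without doxycycline shNS stood at 10.2 CPM and shDis3l2 at 11.3 CPM. Ak1, an adenylate kinase, was at 4.24 to 5.32 CPM in shNS and 0.709 to 1.07 CPM in shDis3l2 (log2 fold change -2.43, edgeR adjusted p = 0.00551), and here the gap was present without doxycycline, at 5.79 against 0.991 CPM. Both calls held whichever library was omitted. Steap3, an iron reductase (-1.56), Tob1, an antiproliferative relative of Btg2 (-1.67), the thiamine transporter Slc19a2 (-0.91), the small GTPase Rap2b (-0.89) and the lipase Abhd4 (-0.83) also fell, with edgeR adjusted p of 0.0177 to 0.0396. Ptp4a3, a phosphatase, rose by 1.03 (adjusted p = 0.0214) and Pml, the scaffold of PML nuclear bodies, by 0.90 (0.0419). These 7 calls were lost in 1 to 5 of the 6 fits that left out a library (adjusted p up to 0.178). Without doxycycline, in 1 library a line, the ratio of shDis3l2 to shNS was 0.296 for Tob1 and 0.454 for Steap3. It was 0.590 for Abhd4, 0.662 for Rap2b and 0.815 for Slc19a2, and 1.61 for Ptp4a3 and 1.09 for Pml.

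Genes that p53 lowers indirectly, through p21 and the DREAM repressor complex, were listed as well. All 24 were tested, and 1 rose and 0 fell by edgeR (all genes 2.13% and 4.01%). An unadjusted edgeR p under 0.05 was found for 10, where 2864 of all 13752 genes had one. The median log2 fold change was 0.53. Of all 13752 genes DESeq2 called 644 higher and limma-voom 320. In the list DESeq2 called 5 higher (Ccnb2, Kif23, Cdk1, Cdc20 and Cks2, the last named after its value was seen) and limma-voom 1. The 1 was Ccnb2, cyclin B2, at 75.3, 51.3 and 35.9 CPM in shNS and 119, 126 and 116 CPM in shDis3l2 (log2 fold change 1.15, edgeR adjusted p = 0.0472), lost in 5 of the 6 fits that left out a library (adjusted p up to 0.165). With doxycycline all 24 values were positive, while over all genes 50.25% were negative. In 11 of the 24 all shDis3l2 libraries lay above all shNS libraries, where 13.2% of all genes did so. Without doxycycline 5 of the 24 log2 ratios were negative, while over all genes 50.2% were. The median of the 24 was 0.42, with 4 at least 2-fold higher and 0 at least 2-fold lower (all genes 9.29% and 11.5%). Ccnb2 then stood at 155 CPM in shDis3l2 and 62.5 CPM in shNS. Of the shNS libraries, replicate 1 was the nearest to shDis3l2 in Ccnb2. Kif23 (0.95), Cdk1 (0.52) and Cdc20 (0.69) came next, with edgeR adjusted p of 0.0613 to 0.0999.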

How the data were processed

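The values are RSEM's expected counts for each gene, not normalized, which the authors deposited in 1 table covering 8 libraries. Trimming with cutadapt, alignment with STAR 2.7, RSEM, and the builds GRCm38 and mm10 appear in the submitters' processing notes, with no order. Annotation release and strandedness of counting: not given in the sources used here. Per the labels' protocols, a stranded total RNA kit with ribosomal RNA removal was used and 150 nt pairs were read. Reads that fit several genes are shared out by RSEM, so close copies are less certain.

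Columns were matched to samples by name. All 55450 identifiers matched GENCODE M21, which gave symbols, coordinates and exon lengths. Counts were rounded (4.68 to 5.24% of values changed) and tested with edgeR 4.0.16 (R 4.3.3): filterByExpr with a minimum count of 10, TMM, robust quasi-likelihood test, two-sided, Benjamini-Hochberg over all genes, threshold 0.05. The SE is the log2 fold change divided by the root of F. The line comparison used 6 libraries, the doxycycline effects all 8, with 4 residual degrees of freedom. The libraries without doxycycline were compared by ratio (prior count 2 for log2 values) and, after seeing the data, by a contrast in the 8-library fit. Levels are CPM scaled by TMM over all 8 libraries.

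Every member is described; other genes named are those called in the fixed lists, up to 4 with the smallest adjusted p, and neighbours of called members. The members and lists were chosen with earlier results of these data known. Alternatives were DESeq2 1.42.0, limma-voom (limma 3.58.1), other scalings and filters, a replicate block, and leaving out each library. The test was also run on simulated counts with the same spread for every gene and library, which says little of error rates in these data. Replicates differed by more than counting noise (chi-square per gene of at least 18.1).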

Additional observations from a re-analysis of the deposited data

How the results depend on the processing

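The 8 lower members numbered 7 to 9 under the other scalings, filters and tools and with all 8 libraries in the fit, and 1 to 9 when a library was left out, the lowest without shDis3l2 replicate 2. The 1 higher member, Trp53, was not called (0) with all 8 libraries in the fit, with line and doxycycline as 2 terms over all 8 libraries (chosen after seeing the data; 9 members lower), or without any 1 library (0 to 0). With the replicate number as a block 5 members were lower and 0 higher: Ccng1, Phlda3 and Eda2r also missed the threshold (edgeR adjusted p = 0.0565, 0.0601 and 0.124). Same-numbered libraries did not deviate together (correlations -0.13, 0.02 and -0.02), so the numbers were not taken as pairs. For the doxycycline effect in shNS the count of members was 0 to 2 when a library was left out, the 2 without shNS replicate 2, and 0 under the other alternatives. For the lines without doxycycline, tested after seeing the data, the members called lower were 0 by edgeR and 6 by DESeq2. They were 0 to 3 when a library was left out, the 3 without shNS replicate 2. All genes called lower were 17 by edgeR, 408 by DESeq2 and 423 by edgeR without shNS replicate 2. Members called higher were 0 throughout. No called member changed sign under the 15 alternatives, but 7 of 23 uncalled members did. All genes called numbered 845, against 1748 by DESeq2, 1480 with line and doxycycline as 2 terms, 421 with the block, and 464, 203 and 259 without shDis3l2 replicate 1, 2 or 3. For the doxycycline effect all genes called were 0 by edgeR; DESeq2 called 72 in shNS, 64 in shDis3l2 and 34 for their difference, limma-voom 1 in shNS, edgeR without a low-count filter 2 in shNS and 2 for the difference, and edgeR without shNS replicate 2 called 544 and 121. Depth limits Gdf15, Fas and Perp, which rest on few counts.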

Other observations

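The genes beside Cdkn2a on chromosome 4 were chosen after the absence of its counts had been seen. Cdkn2b (89306299 to 89311039, GRCm38), a cyclin-dependent kinase inhibitor next to Cdkn2a (89274471 to 89294653), had 0 counts in all 8 libraries as well, which allows at most 0.0686 to 0.0944 CPM in a single library. Mtap, an enzyme of methionine salvage on the other side of Cdkn2a (89137122 to 89181081), was detected in every library, at 59.3, 77.8 and 100.5 CPM in shNS and 86.2, 79.1 and 76.2 CPM in shDis3l2 with doxycycline, and at 75.9 and 75.8 CPM without it. Counts of 0 show only that no RNA of these genes was detected at this depth.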
